A study of Mus musculus with 41 samples.

Results

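The AP-1 immediate-early genes are 8 genes that encode subunits of the transcription factor AP-1: Fos, Fosb, Fosl1, Fosl2, Jun, Junb, Jund and Atf3. They were found by symbol (GENCODE M21) among the 55536 gene rows of each count table, and all 8 were present. The set was chosen with results of the cultured-cell time course already known, so values from that time course are given as a description, with no p-value, and where the fit's calls are counted they stand beside the share of all genes called and support nothing. Of the 8, 7 passed the filter on low counts in each assay, and Fosl1 did not in either.

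AP-1 is a dimer of basic leucine zipper proteins. FOS proteins must pair with a JUN protein to bind DNA, whereas JUN proteins can also pair among themselves, and ATF3 pairs with JUN proteins or with itself. Transcription of Fos, Fosb, Jun, Junb and Atf3 is switched on within minutes by growth factors, stress or cell handling through mitogen-activated kinases, serum response factor and CREB/ATF proteins, and their transcripts are short-lived. Spermatogonial stem cells, the germ cells that sustain sperm production, depend on growth factor signals such as GDNF and FGF2, which act through these kinases.

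RHOX10, a homeobox transcription factor, was studied in mouse (C57BL/6) testis in 41 samples. For RNA-seq, germ cells were sorted as eGFP+ from mice crossed with OCT4-eGFP animals, giving 4 libraries with the wild-type label and 4 the Rhox10-null label, each pooling testes of 3 animals (ages were not given in the labels). iSLAM-seq, a 3′ end sequencing of polyA RNA around the switching on of a factor, used germline stem (GS) cells grown from neonatal (P0-P1) testes. In all of these cultures endogenous Rhox10 was knocked down with a lentiviral shRNA and cells were selected for GFP, so that the controls carry the knockdown too. A second lentivirus carried either a Rhox10-ERT2-mCherry fusion, which responds to 4-hydroxytamoxifen, or ERT2-mCherry alone (the empty vector, Ctrl). There were 6 time points (0, 0.5, 1, 2, 4 and 8 h) with 2 libraries per vector at each, 24 in all. For CUT&Tag, an assay that marks DNA next to a bound antibody, GS cells were used with the same knockdown and an HA-tagged Rhox10 lentivirus, with 3 libraries each of HA antibody on that line (RHOX10), IgG, and HA-tagged empty vector. The labels leave unstated whether the empty-vector cells received tamoxifen, and whether the counts are of every read or of T-to-C converted reads alone is not given in the sources used here.

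Libraries held 6602089 to 8278887 counts in RNA-seq and 9419615 to 12645845 in iSLAM-seq. Gm42418 alone took 51.0% to 59.4% of RNA-seq counts. Rhox10 counts were 3 to 10 in wild-type and 4 to 11 in libraries labelled null, so they do not check the genotype, and directions between genotypes follow the labels. In iSLAM-seq Rhox10 was at 34.0 to 46.7 CPM (counts per 1000000 of library size, scaled by TMM) in the 12 fusion libraries, 0 h included, and at 0.202 to 2.42 CPM in the 12 empty-vector libraries. The pair of empty-vector libraries at 0.5 h differed from each other more than any other pair (chi-square per degree of freedom 30.0, against at most 5.13 elsewhere). Null replicate 4 stood apart from the other null-labelled libraries (4.59 to 5.13, against 1.42 to 1.62 among those 3). Germ cell markers were present in both assays: 18 of 18 had counts, with a summed median of 435 CPM in wild-type and 220 CPM in null RNA-seq libraries. Somatic cell markers were present in these RNA-seq libraries too. Sertoli cell markers summed to medians of 521 CPM (wild-type) and 556 CPM (null), and peritubular and stromal markers to 456 and 717 CPM. Sums over different genes do not give shares of cells. The Leydig cell markers Hsd3b1 and Insl3 and the Sertoli cell marker Amh had 0 counts in every GS cell library. Other markers of those lists had counts. The 9 Sertoli cell markers summed to medians of 353 CPM (empty vector) and 389 CPM (fusion), and the 6 Leydig cell markers to 11.1 and 11.6 CPM. The 8 peritubular and stromal markers summed to 1206 and 1522 CPM.

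The deposited RHOX10 peak table lists 5147 peaks, each with all 3 RHOX10 libraries, and 4 of them are annotated to AP-1 genes. The positions below are on GRCm38 (mm10), and the score is the one the authors deposited. Fosl2, a FOS family member with a long-lived protein, had the highest-scoring of these: chr5:32135368-32136001, score 538.6, rank 269 of 5147, annotated promoter-TSS. Its centre lies 117 bases before the nearest GENCODE M21 start of Fosl2, and at -788 bases in the authors' annotation. Atf3, a stress-induced member of the ATF/CREB family, had a promoter-TSS peak at chr1:191183045-191183658 with score 158.6 and rank 2104. Fos, the founding member of its family, had an intergenic peak at chr12:85485710-85486378 with score 170.7 and rank 1918. Its centre lies 11133 bases past the nearest GENCODE M21 start of Fos, and 12143 bases past the start in the authors' annotation. The next genes, Tmed10 and Jdp2, are at distances of -111197 and -112983 bases. Fosb, the closest relative of Fos, had a peak at chr7:19324667-19325397 with score 59.6 and rank 4065, annotated intergenic by the authors, at -14981 bases from the Fosb start, with its centre inside the GENCODE M21 gene of the lncRNA D830036C21Rik. Jun, Junb, Jund and Fosl1 had no annotated peak. The median score of all peaks was 127.5, so that the Fosb peak lies below it and the other 3 above it.

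Sequence under the Fosl2, Atf3 and Fos peaks is shown because these are the AP-1 sites with an above-median peak, and the promoters of Fos, Fosb and Jun because their levels differed most between vectors in culture, at 0 h (Fosb and Jun) or 4 h (Fos). Sequences are from RefSeq GRCm38.p6, written 5′ to 3′, on the plus strand for peak windows and on the gene's strand for promoters (the 250 bases before the RefSeq start). Capitals mark TGACG or its complement CGTCA, the half-site of the CRE element that CREB/ATF proteins bind, the TGACATCA element in Jun, an AP-1 site variant, and a CArG box in the Fos peak, the element that serum response factor binds.

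Fosl2 peak, chr5:32135551-32135800, plus strand, up to the gene start: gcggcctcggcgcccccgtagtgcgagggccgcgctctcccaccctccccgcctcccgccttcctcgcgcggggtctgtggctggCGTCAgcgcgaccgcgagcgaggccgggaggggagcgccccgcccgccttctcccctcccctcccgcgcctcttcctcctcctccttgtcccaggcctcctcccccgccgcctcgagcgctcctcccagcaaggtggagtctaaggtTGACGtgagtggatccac
Atf3 promoter, chr1:191183334-191183583, minus strand: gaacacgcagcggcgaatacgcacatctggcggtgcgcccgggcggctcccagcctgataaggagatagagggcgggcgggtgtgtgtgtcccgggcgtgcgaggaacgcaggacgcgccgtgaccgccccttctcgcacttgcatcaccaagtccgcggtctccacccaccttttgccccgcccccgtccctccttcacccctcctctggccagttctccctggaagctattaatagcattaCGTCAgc
Fos peak centre, chr12:85485919-85486168, plus strand: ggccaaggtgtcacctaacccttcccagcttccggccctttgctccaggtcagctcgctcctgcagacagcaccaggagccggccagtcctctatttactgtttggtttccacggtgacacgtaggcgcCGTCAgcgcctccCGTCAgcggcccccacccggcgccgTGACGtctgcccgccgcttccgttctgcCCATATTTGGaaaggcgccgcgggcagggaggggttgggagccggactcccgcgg
Fos promoter, chr12:85473640-85473889, plus strand: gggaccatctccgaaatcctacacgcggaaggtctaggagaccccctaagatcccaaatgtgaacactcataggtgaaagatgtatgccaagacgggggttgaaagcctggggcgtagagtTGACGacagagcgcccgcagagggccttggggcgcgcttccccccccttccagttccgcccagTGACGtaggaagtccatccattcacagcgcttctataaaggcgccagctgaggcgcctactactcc
Fosb promoter, chr7:19310046-19310295, minus strand: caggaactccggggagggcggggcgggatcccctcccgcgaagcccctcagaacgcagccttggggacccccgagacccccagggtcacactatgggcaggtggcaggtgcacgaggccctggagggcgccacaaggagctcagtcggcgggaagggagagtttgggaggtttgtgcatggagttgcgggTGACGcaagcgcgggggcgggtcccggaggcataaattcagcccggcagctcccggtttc
Jun promoter, chr4:95052223-95052472, minus strand: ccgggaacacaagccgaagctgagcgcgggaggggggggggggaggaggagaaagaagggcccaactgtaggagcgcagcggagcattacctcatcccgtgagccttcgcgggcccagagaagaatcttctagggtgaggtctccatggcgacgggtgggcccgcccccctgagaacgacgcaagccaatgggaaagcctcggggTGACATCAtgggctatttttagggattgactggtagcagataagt

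All 250 bases of the Atf3 promoter window lie inside the Atf3 peak. The Fos peak centre held 3 half-sites, at bases 130, 143 and 168, and a CArG box at bases 196 to 205, the Fosl2 window held 2 half-sites, and the Atf3 promoter 1, starting 7 bases before the RefSeq start. The promoter of Fos held 2 half-sites, at 129 and 66 bases before its start, and those of Fosb and Junb 1 each, at 60 and 106 bases. In Jun the TGACATCA element lay 45 bases before the start. The RefSeq promoters of Fosl2 and Jund, not shown, held none of the marked elements. That of Fosl2, chr5:32136222-32136471, lies outside the Fosl2 peak, so the Fosl2 window shown ends at the GENCODE M21 gene start instead. Promoter entries matched 7 of the 8 genes. Over both strands, TGACG was present in 17.8% of 32851 promoters of this length and in 27.4% of the central 250 bases of 4976 peaks. Those 4976 are the peaks left of 5147 after chr18 and any sequence without a RefSeq chromosome name were left out. TGACATCA was present in 2.9% and 0.7%, a CArG box in 1.5% and 0.7%, the AP-1 element TGACTCA in 4.5% and 1.7%, the full CRE TGACGTCA (which contains the half-site) in 1.5% and 2.2%, and the homeodomain core TAATTA in 4.8% and 0.7%. None of TGACTCA, TGACGTCA and TAATTA occurred in the windows shown. The motifs were chosen with these letters in view, and a match is only a run of letters.

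The Fosb peak is of another kind, a tandem repeat with a period of 53 bases, whose window matched itself at that shift over 96.4% of bases. Of the same 4976 peak centres, 8 (0.16%), this one among them, were at least as repeated, and the median was 37.1%. Its first copies are printed to show this, with the second copy in capitals and 1 mismatch between them.

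Fosb peak, chr7:19324907-19325012, plus strand: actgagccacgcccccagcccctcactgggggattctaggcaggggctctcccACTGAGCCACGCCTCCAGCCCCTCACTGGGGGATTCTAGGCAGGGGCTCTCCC

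Within 3 kb of an annotated start, 2 of the 8 genes (25.0%, Fosl2 and Atf3) had a RHOX10 peak, against 18.7% of 21924 protein-coding genes, and at any distance 4 of 8 (50.0%) against 20.6%. Among related lists, 7 of 15 AP-1 partners, 9 of 19 upstream kinases and factors, 6 of 23 other immediate-early genes and 2 of 16 AP-1 targets had one within 3 kb. The partners list holds related basic leucine zipper genes, and not each of them need pair with FOS or JUN proteins. The 6 immediate-early genes were Btg2, Dusp1, Egr4, Klf4, Nr4a2 and Nr4a3.

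In RNA-seq of the cells sorted as eGFP+, AP-1 transcripts were higher in null-labelled than in wild-type libraries for 6 of the 7 genes tested. Fosl2, Fosb, Junb, Atf3, Jun and Fos were higher, by log2 0.75 to 0.28. Jund, the constitutively expressed JUN family member, was not. The libraries also held somatic cell markers, so the values are not of germ cells alone. The comparison called 37.5% of 13538 genes in either direction and 18.6% as higher (edgeR quasi-likelihood test, adjusted p under 0.05). The median log2 difference was 0.42 over the 7 AP-1 genes and 0.00306 over all genes. The genotype ranges did not overlap, null above wild-type, for 5 of the 7 (Fos, Fosb, Fosl2, Jun and Junb), against 15.8% of all genes. The genes were not picked on this comparison, but the earlier results of these data were known.

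Among the FOS family, Fosl2 (ENSMUSG00000029135, chr5:32135801-32157842, plus strand) had the largest difference. It was at 36.7, 38.2, 34.6 and 36.8 CPM in wild-type replicates 1 to 4 and at 59.0, 61.1, 64.5 and 62.0 CPM in null replicates 1 to 4. Every null library was above every wild-type library, and the log2 difference was 0.75 (SE 0.0574, edgeR adjusted p = 2.60e-14). Fosb (ENSMUSG00000003545, chr7:19302696-19310051, minus strand) was at 329, 332, 338 and 337 CPM in wild-type and 481, 475, 472 and 469 CPM in null-labelled libraries. The ranges lay far apart relative to their width, with a log2 difference of 0.51 (SE 0.0416, edgeR adjusted p = 2.55e-13). Fos (ENSMUSG00000021250, chr12:85473890-85477273, plus strand) was at 242, 258, 243 and 247 CPM in wild-type and 315, 299, 304 and 289 CPM in null-labelled libraries. Its ranges did not overlap either, and the log2 difference of 0.28 (SE 0.0438, edgeR adjusted p = 1.39e-06) was the smallest of those called. Fosl1 (ENSMUSG00000024912, chr19:5447547-5455946, plus strand), which encodes FRA1, was near the detection limit with 3, 1, 5 and 6 counts in wild-type and 2, 5, 1 and 1 in null-labelled libraries. Its mean of 0.567 CPM in wild-type and 0.284 CPM in null did not differ detectably at this depth (two-sided exact permutation test, 70 arrangements, with a p of 0.2, where 0.0286 is the smallest possible).

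Among the JUN family, Junb (ENSMUSG00000052837, chr8:84974484-84978718, minus strand), which can restrain JUN, was at 47.8, 53.8, 46.8 and 52.0 CPM in wild-type and 69.2, 71.4, 74.1 and 66.9 CPM in null-labelled libraries. The null-labelled libraries were all higher, by log2 0.49 (SE 0.0560, edgeR adjusted p = 2.19e-09). Jun (ENSMUSG00000052684, chr4:95049034-95052222, minus strand) was at 152, 165, 150 and 156 CPM in wild-type and 190, 190, 202 and 191 CPM in null-labelled libraries. These ranges were also separate, and the log2 difference was 0.31 (SE 0.0456, edgeR adjusted p = 4.66e-07). Jund (ENSMUSG00000071076, chr8:70698949-70700616, plus strand) was at 88.3, 92.3, 89.3 and 83.3 CPM in wild-type and 84.4, 85.0, 91.0 and 103 CPM in null-labelled libraries. The ranges overlapped, only null replicate 4 lay above the wild-type libraries, and the log2 difference of 0.04 (SE 0.0550, edgeR adjusted p = 0.609) did not pass. Atf3 (ENSMUSG00000026628, chr1:191170296-191218039, minus strand) was at 13.1, 15.8, 11.4 and 13.6 CPM in wild-type and 21.2, 16.3, 15.7 and 18.7 CPM in null-labelled libraries. Its log2 difference of 0.42 (SE 0.103, edgeR adjusted p = 0.00121) passed, though wild-type replicate 2 lay just above null replicate 3, and the exact permutation test of the 8 values gave p = 0.0571. For Fos, Fosb, Fosl2, Jun and Junb that exact test gave 0.0286 each, the smallest it allows.

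**Figure D1:**
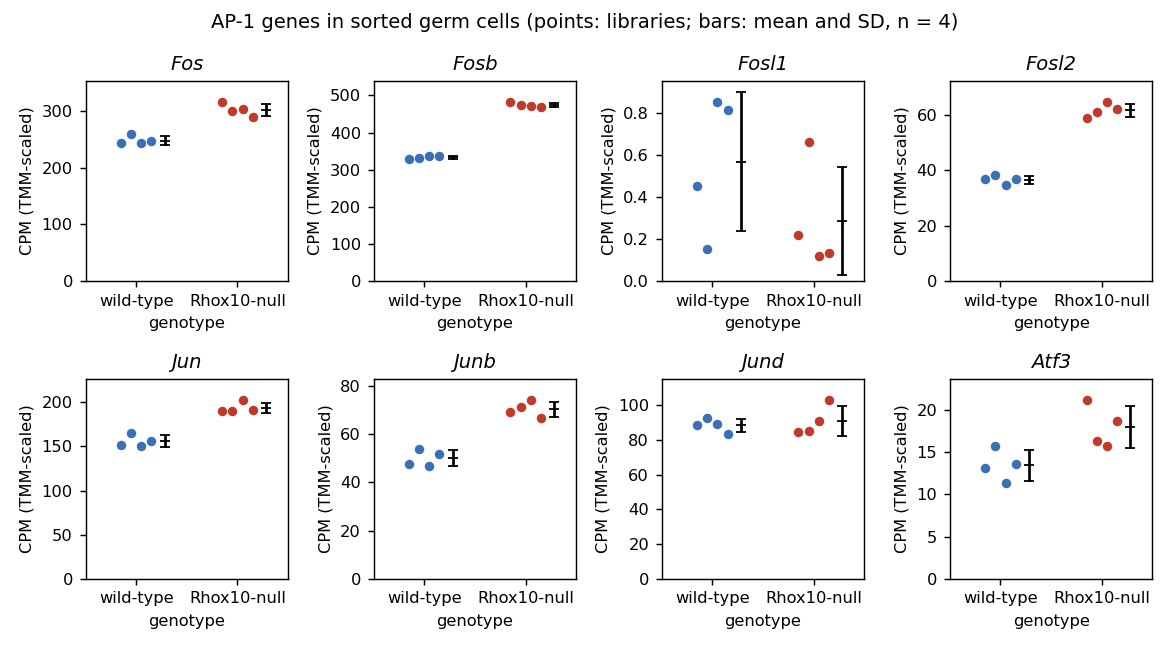
CPM (TMM-scaled, linear axes from 0) of each AP-1 gene in the 4 wild-type and 4 null-labelled RNA-seq libraries, 1 point per library, with mean and SD. The null points sit above all wild-type points for Fos, Fosb, Fosl2, Jun and Junb, and the genotypes overlap for Jund, Atf3 and Fosl1.

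Per kilobase of gene length, the level in wild-type libraries was highest for Fos (105 CPM per kb ± 3.12, SD, n = 4). Fosb (53.5 ± 0.642), Jund (52.9 ± 2.25) and Jun (48.8 ± 2.10) came next, and the ranges of Fosb and Jund overlapped, as did those of Jund and Jun. Junb (21.8 ± 1.45), Atf3 (6.25 ± 0.849), Fosl2 (3.78 ± 0.154) and Fosl1 (0.279 ± 0.162) followed. In null-labelled libraries, again as levels per kilobase, Fos (128 ± 4.60) and Fosb (76.0 ± 0.826) led, Jun (60.6 ± 1.89) lay above Jund (54.4 ± 5.11) in mean with overlapping ranges, and Fosl2 (6.37 ± 0.238) remained below Atf3 (8.35 ± 1.16). The order of the 8 means was otherwise the one found in wild-type.

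Without null replicate 4, the same test called 6 AP-1 genes higher, and Jund was at log2 -0.02. Leaving out any single RNA-seq library left 6 called. Scaling decided the overall split: 2518 genes were higher and 2553 lower with TMM, 7229 and 629 with library totals, and 12098 and 73 when scaled to 12 germline genes, with the median of all genes moving to 0.35 and 0.87. Jund was then called at 0.39 and 0.91, close to those medians, whereas Fosl2, at 1.10 and 1.62, and Fosb, at 0.85 and 1.38, exceeded them.

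Markers of other cell types differed by genotype, and their part in the AP-1 differences was not tested. In bulk RNA, fewer cells of a type and less RNA per cell cannot be told apart. The 18 germ cell markers summed to 428 to 439 CPM in wild-type and 217 to 227 CPM in null-labelled libraries. Of the 18 tested, 17 were called lower, as were 2553 of all 13538 genes. The 8 peritubular and stromal markers summed to 444 to 470 CPM and 705 to 745 CPM, with 7 of 8 called higher, as were 18.6% of all genes. Sertoli cell markers summed to 489 to 531 and 532 to 559 CPM, Leydig cell markers to 71.7 to 73.6 and 87.1 to 92.9 CPM, endothelial markers to 26.5 to 32.5 and 39.4 to 44.2 CPM, and macrophage markers to 14.6 to 18.5 and 19.9 to 26.1 CPM. Within the Sertoli list the calls went both ways, with Amh higher (log2 0.43) and Cldn11 lower (-0.73). No other Sertoli cell marker was called. Erythroid markers summed to 1.36 to 4.07 CPM in wild-type, where Slc4a1 had 0 counts, and to 78.3 to 86.8 CPM in null-labelled libraries. The 8 heat-shock genes, also raised by cell handling, summed to 621 to 643 CPM in wild-type and 566 to 578 CPM in null-labelled libraries. The sum hides a split: Hspa1a (log2 0.62) and Hspa1b (0.66) were called higher, and Hsp90aa1 (-0.46) and Hspa8 (-0.19) lower.

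The counts of calls below stand beside 18.6% of 13538 genes called higher and 37.5% called in either direction. Of 12 tested genes in the partners list, 3 were higher in null-labelled libraries and 0 lower. They were Creb1, a CRE-binding activator (log2 0.24, edgeR adjusted p = 0.0111), and the small MAF proteins Maff (0.38, edgeR adjusted p = 0.0226) and Mafk (0.24, edgeR adjusted p = 0.0307). Of 19 upstream kinases and factors, 1 was higher and 4 lower, among them the kinases Rps6ka1 (-0.90, edgeR adjusted p = 2.72e-06) and Mapk14, which encodes p38α (-0.31, edgeR adjusted p = 0.00301), and, as the higher one, Map3k1 (0.23, edgeR adjusted p = 0.000441). Of 23 other immediate-early genes, 10 were higher and 1 lower. Zfp36, which destabilises AU-rich mRNAs (0.69, edgeR adjusted p = 3.92e-11), and the nuclear receptor Nr4a1 (0.49, edgeR adjusted p = 3.31e-09) were higher, and the zinc-finger factor Egr4 was the lower one (-1.61, edgeR adjusted p = 5.74e-13). Of 11 tested AP-1 targets, 3 were higher, such as the haem oxygenase Hmox1 (0.48, edgeR adjusted p = 1.07e-07), and 2 lower, the gelatinase Mmp9 (-1.49, edgeR adjusted p = 6.54e-13) and cyclin D1 gene Ccnd1 (-1.06, edgeR adjusted p = 9.64e-08). Heat-shock genes divided 2 and 2, with the HSP70 genes Hspa1b (0.66, edgeR adjusted p = 9.69e-10) and Hspa1a (0.62, edgeR adjusted p = 9.54e-09) higher and Hsp90aa1 (-0.46, edgeR adjusted p = 4.36e-11) lower. Hspa1a and Hspa1b are near-identical, so reads could be split between them. The median log2 difference was 0.13 for partners, -0.12 for upstream genes, 0.27 for other immediate-early genes, 0.26 for targets and 0.06 for heat-shock genes.

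In the cultured GS cells, most AP-1 transcripts started higher with the Rhox10-ERT2 fusion than with the empty vector and ended lower. At 0 h all 7 detected genes had both fusion libraries above both empty-vector libraries, and at 4 h all 7 had them below. At 8 h 6 were below, and Jun was above. The share of all genes with libraries separated in this way was not counted. The genes were picked on this time course, so nothing is read from these counts. Levels became lower over time with both vectors for Fos, Fosb, Atf3, Jun and Junb, whereas for Fosl2 and Jund the 8 h means with the empty vector were at 93.8% and 114% of 0 h. All later times were compared with the same 0 h libraries.

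In order of time (0, 0.5, 1, 2, 4 and 8 h), Fos with the empty vector was at 190, 190, 155, 75.8, 50.1 and 20.7 CPM in replicate 1 and at 192, 149, 139, 83.7, 47.8 and 19.7 CPM in replicate 2. With the fusion, Fos was at 249, 223, 132, 43.7, 16.9 and 15.3 CPM in replicate 1 and 261, 223, 126, 46.6, 17.0 and 16.3 CPM in replicate 2. Fos thus started higher with the fusion, was lower with it from 1 h on, and by 4 h had reached 6.63% of its 0 h mean there, against 25.6% with the empty vector. At 8 h it was at 6.19% and 10.6%, respectively. As log2 differences between vectors, Fos was at 0.42 (SE 0.0953) at 0 h, -1.53 (SE 0.112) at 4 h and -0.35 (SE 0.121) at 8 h.

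Over the same times, Fosb with the empty vector was at 66.2, 68.2, 69.8, 50.5, 24.7 and 11.3 CPM in replicate 1 and at 64.8, 50.9, 74.1, 49.2, 26.2 and 13.6 CPM in replicate 2. Fosb in the fusion libraries was at 173, 146, 178, 80.9, 12.6 and 4.87 CPM in replicate 1 and 164, 156, 171, 80.6, 10.5 and 3.97 CPM in replicate 2. Fosb kept its level for the first hour with both vectors and had the deepest decline of the 7 genes with the fusion, to 2.62% of its 0 h mean at 8 h against 19.1% with the empty vector. The vectors crossed between 2 and 4 h: the log2 difference was 1.37 (SE 0.117) at 0 h, 0.70 (SE 0.118) at 2 h, -1.14 (SE 0.140) at 4 h and -1.50 (SE 0.175) at 8 h.

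Fosl2 over these times with the empty vector was at 71.0, 76.6, 81.7, 74.3, 76.9 and 70.6 CPM in replicate 1 and at 82.4, 69.2, 73.6, 72.8, 75.9 and 73.2 CPM in replicate 2. With the fusion, Fosl2 was at 125, 130, 110, 74.1, 66.5 and 70.1 CPM in replicate 1 and 129, 133, 120, 78.9, 59.6 and 64.3 CPM in replicate 2. The empty-vector values of Fosl2 stayed between 69.2 and 82.4 CPM, and the fusion values started above them and came down to that level by 2 h and lay below the empty-vector libraries at 4 and 8 h. The log2 difference was 0.72 (SE 0.0971) at 0 h, 0.06 (SE 0.0980) at 2 h and -0.10 (SE 0.0992) at 8 h. Fosl1 had 0 to 2 counts in the empty-vector libraries and 0 to 4 in the fusion libraries, too few for a comparison.

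Over the same times, Jun with the empty vector was at 88.7, 87.1, 82.7, 73.8, 52.6 and 43.9 CPM in replicate 1 and at 92.2, 70.2, 82.9, 70.0, 56.8 and 41.1 CPM in replicate 2. Jun in the fusion libraries was at 230, 230, 193, 64.3, 48.3 and 60.8 CPM in replicate 1 and 218, 241, 184, 64.0, 46.8 and 56.3 CPM in replicate 2. The decline of Jun with the fusion was steepest between 1 and 2 h, and at 2 h it was at 28.7% of its 0 h mean, against 79.5% with the empty vector. Its log2 difference was 1.31 (SE 0.0931) at 0 h, -0.16 (SE 0.0951) at 2 h, -0.20 (SE 0.0976) at 4 h and 0.46 (SE 0.0986) at 8 h, when Jun was higher with the fusion again.

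Junb with the empty vector was at 246, 240, 274, 241, 191 and 156 CPM in replicate 1 and at 211, 135, 308, 241, 193 and 147 CPM in replicate 2. With the fusion, Junb was at 410, 387, 488, 280, 131 and 85.3 CPM in replicate 1 and 388, 404, 517, 269, 137 and 90.7 CPM in replicate 2. Junb was highest at 1 h with both vectors, and replicate 2 of the empty vector at 0.5 h was the lowest of the empty-vector values. At 8 h it was at 22.1% of the 0 h mean with the fusion and 66.2% with the empty vector. The log2 difference was 0.80 (SE 0.144) at 0 h, -0.52 (SE 0.146) at 4 h and -0.78 (SE 0.149) at 8 h.

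Over the same times, Jund with the empty vector was at 127, 141, 136, 138, 135 and 146 CPM in replicate 1 and at 115, 164, 134, 136, 143 and 130 CPM in replicate 2. Jund in the fusion libraries was at 145, 150, 141, 149, 120 and 86.0 CPM in replicate 1 and 136, 137, 142, 148, 114 and 88.8 CPM in replicate 2. Jund had log2 differences of -0.09 to 0.22 up to 2 h and was below the empty vector at 4 and 8 h, at 62.3% of its 0 h mean at 8 h, while the empty-vector mean was at 114%. The log2 difference was 0.22 (SE 0.0873) at 0 h, 0.12 (SE 0.0869) at 2 h, -0.25 (SE 0.0874) at 4 h and -0.66 (SE 0.0887) at 8 h.

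Atf3 with the empty vector was at 36.0, 33.1, 31.2, 27.0, 18.9 and 12.2 CPM in replicate 1 and at 33.7, 30.1, 29.3, 28.2, 22.2 and 10.9 CPM in replicate 2. With the fusion, Atf3 was at 68.1, 65.8, 52.9, 30.4, 9.05 and 9.33 CPM in replicate 1 and 57.9, 55.0, 55.9, 29.1, 9.84 and 7.06 CPM in replicate 2. The vectors were closest at 2 h for Atf3, and at 8 h it was at 13.0% of its 0 h mean with the fusion against 33.1% with the empty vector. The log2 difference was 0.85 (SE 0.137) at 0 h, 0.11 (SE 0.142) at 2 h, -1.12 (SE 0.158) at 4 h and -0.50 (SE 0.171) at 8 h.

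**Figure D2:**
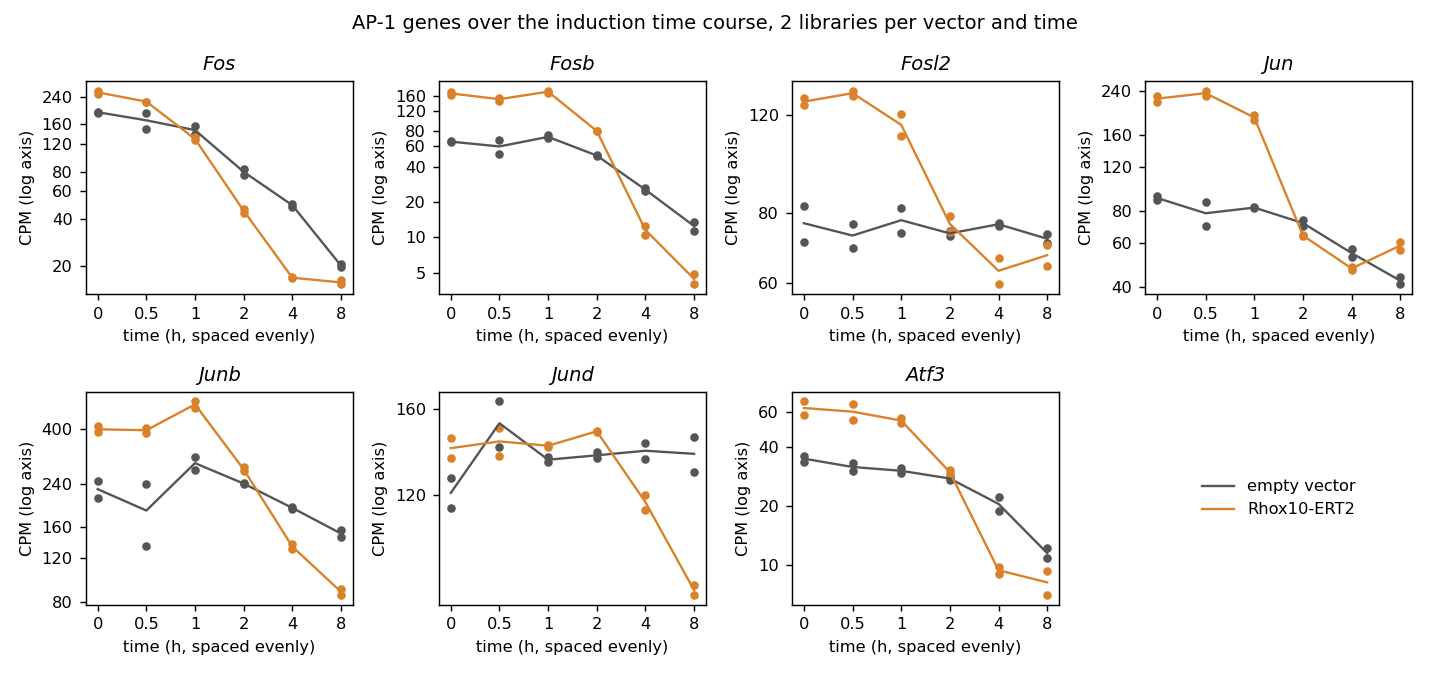
CPM (log axes) of 7 AP-1 genes against time in hours (evenly spaced), 1 point per library and lines through the means of 2 libraries, for the empty vector and the Rhox10-ERT2 fusion. The fusion lines start above and cross the empty-vector lines by 4 h, those of Jund more than once and first before 0.5 h, and for Jun they cross back by 8 h.

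The genes were picked on these differences, so the counts of calls are given beside the background and nothing is read from them. Rhox10-ERT2 minus empty vector called 6 of 7 AP-1 genes as higher at 0 h (all but Jund), where 6.56% of 20642 genes were called higher and 10.9% in either direction. It called the same 6 as higher at 0.5 h (7.94% of all genes) and 5 at 1 h (6.00%). At 2 h Fosb was called higher (6.08% of all genes) and Fos lower (3.94%). At 4 h 4 were called lower, Fos, Fosb, Junb and Atf3 (5.74%). At 8 h Fos, Fosb, Junb, Jund and Atf3 were called lower (8.79%) and Jun higher (8.06%), where 16.8% of all genes were called in either direction. The 8 h calls of Fos and Atf3 were lost under 28 of 32 alternative settings each. The 4 h call of Junb was lost when any 1 of the 4 libraries of that time was left out, with values of -0.54 to -0.46. The 0.5 h call of Fos was lost without replicate 2 of the empty vector at 0.5 h (0.23) or without either fusion library of that time (0.38 and 0.39), and its 0 h call without empty-vector replicate 1 (0.41) or fusion replicate 2 (0.39) of that time.

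Against 0 h, the empty vector had 1 of the 7 called lower at 2 h (Fos; 0.354% of all genes), 4 at 4 h (Fos, Fosb, Jun and Atf3; 1.14%) and 5 at 8 h (the same with Junb; 2.68%). The fusion had 6 called lower at 2 h (all but Jund; 1.14%), 6 at 4 h (3.11%) and all 7 at 8 h (4.06%). The log2 differences from 0 h to 8 h with the empty vector were -3.24 for Fos, -2.39 for Fosb, -1.59 for Atf3, -1.09 for Jun, -0.59 for Junb, -0.09 for Fosl2 and 0.19 for Jund. With the fusion they were -4.01, -5.26, -2.94, -1.93, -2.18, -0.91 and -0.68 in the same order. With the empty vector at 2 h, Fosb and Jun were not called, and their log2 differences ran from -0.42 to -0.39 and from -0.38 to -0.31 over 30 alternatives. The 8 h call of Junb there was lost without empty-vector replicate 1 at 0 h (-0.49) or without either library of 8 h (-0.66 and -0.56), the 4 h call of Atf3 without replicate 1 at 4 h (-0.67), and the 2 h call of Junb with the fusion without any 1 of its 4 libraries (-0.58 to -0.49).

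**Figure D3:**
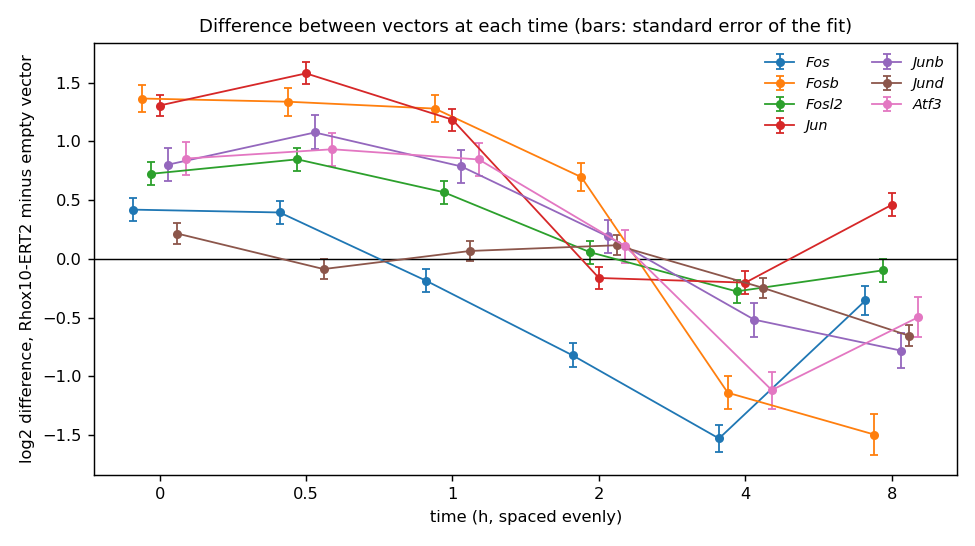
Log2 difference of CPM between Rhox10-ERT2 and empty-vector libraries for 7 AP-1 genes at each time in hours (evenly spaced), with standard errors of the fit (2 libraries per vector and time). All 7 differences are above 0 at 0 h and below 0 at 4 h, and Jun alone is above 0 at 8 h.

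The change of the vector difference from 0 h to 8 h was negative for all 7: -2.86 for Fosb (SE 0.209), -1.58 for Junb (SE 0.207), -1.35 for Atf3 (SE 0.219), -0.87 for Jund (SE 0.124), -0.85 for Jun (SE 0.135), -0.82 for Fosl2 (SE 0.139) and -0.77 for Fos (SE 0.154). All 7 were called lower, as were 1.70% of all genes, and all 7 were called by the F-test over the 5 later times, as were 2.39% of all genes. For Fos the largest change was earlier, -1.95 (SE 0.147) at 4 h, as it was for Atf3, -1.97 (SE 0.209), and for Jun, -1.51 (SE 0.135). The F-test called all 7 AP-1 genes in each fit that left out a library, while its count over all genes ran from 314 without empty-vector or fusion replicate 1 at 8 h to 4331 without empty-vector replicate 1 at 0.5 h, and was 315 without fusion replicate 2 at 8 h and 1555 without empty-vector replicate 2 at 0.5 h. The call of Fos at 8 h against 0 h was lost without empty-vector replicate 1 (-0.70) or fusion replicate 1 (-0.71) of 8 h.

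The other gene lists are shown for the same change. Its median was -0.87 over the AP-1 genes, -1.20 over 23 other immediate-early genes, -0.31 over 16 AP-1 targets, -0.27 over 14 partners, -0.11 over 19 upstream genes, 0.08 over 8 heat-shock genes and -0.02 over all genes. In all 23 other immediate-early genes the change was negative, and 15 were called lower, as were 1.70% of all genes. At 8 h itself, 8.06% of all genes were called higher and 8.79% lower with the fusion. Of those 23, 2 were called higher and 12 lower. Among them were Egr3, a zinc-finger factor (log2 -2.08, SE 0.0928), and Ier3, an apoptosis regulator (1.00, SE 0.0893). Of the 16 targets 5 were called higher and 5 lower, including the protease inhibitor Timp1 (0.78, SE 0.0731), Mmp9 (-1.13, SE 0.0851) and the EGF receptor ligand Hbegf (-1.21, SE 0.0985). Of 14 partners 2 were called higher, among them Maf (1.16, SE 0.199), and 2 lower, among them Atf4, which directs the response to amino acid shortage (-0.62, SE 0.0826). Of 19 upstream genes 1 was called higher, the ternary complex factor Elk3 (0.57, SE 0.148), and 2 lower, the JNK kinase Map2k7 (-0.53, SE 0.0903) and the serum response factor coactivator Mrtfb (-0.44, SE 0.112). Heat-shock genes gave 2 higher, Hsph1 (0.74, SE 0.120) and Hspa1a (0.74, SE 0.161), and 1 lower, Hsp90aa1 (-0.32, SE 0.0728).

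**Figure D4:**
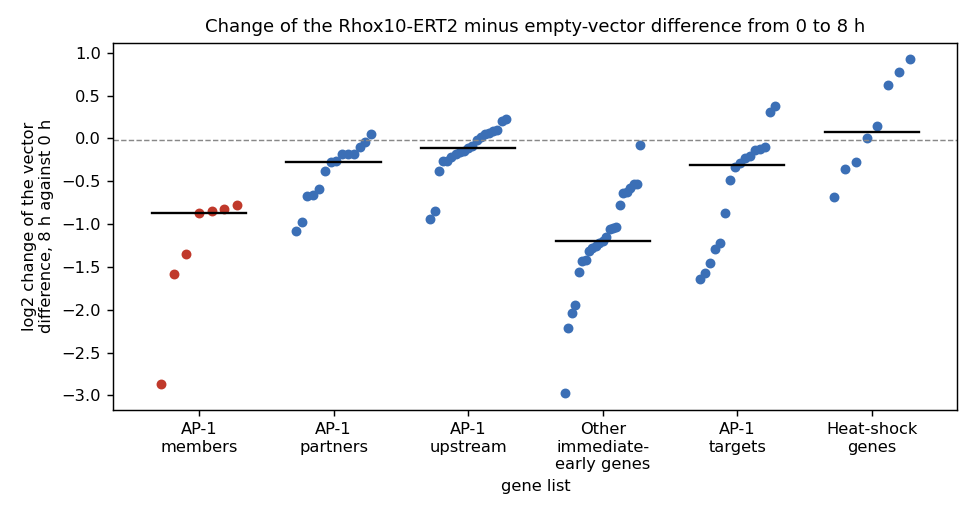
Log2 change of the Rhox10-ERT2 minus empty-vector difference from 0 to 8 h for the tested genes of 6 lists, 1 point per gene, with each list's median as a bar and the median of all 20642 genes as a dashed line. All 7 AP-1 genes (red) lie below -0.7, other immediate-early genes reach lower still, and upstream and heat-shock genes lie on both sides of 0.

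Marker sums of the cell types are given over the 12 libraries of each vector, all times together. These sums were not tested between vectors, and their part in the AP-1 differences was not tested either. Germ cell markers summed to 2687 to 3410 CPM (median 3164) with the empty vector and 2511 to 2820 CPM (median 2668) with the fusion. Peritubular and stromal markers summed to 982 to 1604 CPM (median 1206) and 1172 to 2003 CPM (median 1522), Sertoli cell markers had medians of 353 and 389 CPM, endothelial markers 42.0 and 25.4 CPM, macrophage markers 22.2 and 21.1 CPM, Leydig cell markers 11.1 and 11.6 CPM, and erythroid markers 1.00 and 0.649 CPM. The ranges of the 2 vectors' libraries overlapped in every one. Each range spans all times, so this overlap does not compare the vectors at a given time. At 0 h the fit called single germ cell markers lower with the fusion, among them Ddx4 (log2 -0.63), Gfra1 (-0.62) and Piwil2 (-0.44). No germ cell marker was called higher at 0 h. Of the peritubular and stromal markers, Col1a1 (0.54), Col3a1 (0.44), Pdgfra (0.62) and Dcn (0.39) were called higher then, and Acta2 (-0.48) lower. Heat-shock genes had medians of 1569 and 1562 CPM.

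Across the 12 means of vector and time, the AP-1 genes varied together to different degrees (Pearson r of log2 CPM, a description over means that share a time course). Fosb and Atf3 were most alike (r = 0.983), followed by Fosb and Junb (0.959) and by Fosl2 and Jun (0.953), and Jund was least like the others, down to 0.319 with Jun. Among 12060 genes averaging 5 CPM or more, with the AP-1 genes left out of the ranking, those most like Fos were Dusp1, a phosphatase of mitogen-activated kinases (r = 0.972), Prickle1 and Zfp36 (0.965 each), Filip1l (0.965) and Gm26532 (0.954). Outside AP-1, those most like Junb were Klf6 (0.968), Irs2 (0.967), Nr4a1 (0.964), Btg2 (0.956) and Klf4 (0.948). Outside AP-1, those most like Atf3 were Adm, which encodes adrenomedullin (0.979), Dusp1 (0.977), Ankrd1 (0.971), Btg2 (0.959) and Ctif (0.954). For Jund the highest values were lower, with Rogdi (0.907), Pttg1 (0.903), Slc25a12 (0.902) and Oxct1 (0.894) among them.

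Some AP-1 genes overlap a gene on the other strand, and the strand setting of the counting is not given in the sources used here. Junb overlaps Prdx2, which had up to 198 counts in RNA-seq and 1922 in iSLAM-seq libraries, against at most 634 and 5949 for Junb. Jun overlaps Junos (up to 23 and 47 counts) and Fosl1 overlaps Ccdc85b (up to 24 and 370), while the partners of Jund and Atf3, Gm11175 and Gm24748, had at most 1 count. Reads of such pairs cannot be told apart without strand, so the values of Junb and Fosl1 are uncertain to that degree.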

How the data were processed

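Gene counts were used as the authors deposited them, with 1 column for each library per the file headers. The submitters' processing notes name STAR 2.5.2b, Subread, featureCounts and DESeq2 for RNA-seq, limma 3.42.2 for iSLAM-seq, and Bowtie2 2.2.5, SAMtools and HOMER for CUT&Tag, on GRCm38 or mm10. The strand setting of the counting and the use of control libraries in peak calling are not given in the sources used here. Peak scores and annotations are those the authors deposited, for peaks that each list 3 libraries, and distances were recomputed to the nearest GENCODE M21 start. Other deposited columns used were gene lengths in bases. The tables held 0 further sample columns.

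Counts were tested with edgeR 4.0.16 (quasi-likelihood, TMM, filterByExpr, Benjamini-Hochberg over all genes, adjusted p under 0.05) in R 4.3.3, by genotype alone for RNA-seq and with 12 group means over 24 libraries for iSLAM-seq. Standard errors are the absolute log2 difference over the square root of F. Members, lists and tests were chosen with earlier results of these data known. Named genes were all members, up to 3 called genes per list of smallest adjusted p in RNA-seq and at 8 h, and the 5 genes most like Fos, Junb, Atf3 and Jund. Of the genes this rule selected, 3 are not reported here. The edgeR p-values weigh each difference against the spread between libraries. These are pools of 3 animals in RNA-seq and 2 libraries of cultured cells per group in iSLAM-seq. The fits were tested on simulated counts. Alternatives were DESeq2 1.42.0, other scalings, low-count filters, the replicate number as a block, each library left out in turn and, chosen after seeing the data, leaving out both empty-vector libraries of 0.5 h.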

Additional observations from a re-analysis of the deposited data

Results flagged for a closer look

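In the libraries labelled null, Jun in replicate 3 (202 CPM) lay away from the other 3 (190, 190 and 191 CPM), with a gap of 0.887 of the range, above Dixon's limit for groups of 4. Chance flags about 1 in 20 groups, and 16 groups were examined. The difference between vectors changed from 0 h to 8 h for 7 AP-1 genes, by log2 -0.77 for Fos, -2.86 for Fosb, -0.82 for Fosl2, -0.85 for Jun, -1.58 for Junb, -0.87 for Jund and -1.35 for Atf3. The genes were picked on this time course, so these changes are a description and not independent evidence.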

How the results depend on the processing

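The RNA-seq calls of Fos, Fosb, Fosl2, Jun, Junb and Atf3 kept their direction and stayed past the threshold under every alternative run, while the number of genes called was 2980 with DESeq2, 7858 with library totals and 12171 with germline scaling, against 5071. The F-test count of 494 genes became 821 with DESeq2, 1002 without the filter, 1571 without both empty-vector libraries of 0.5 h, and 314 to 4331 when 1 library was left out, and it called all 7 AP-1 genes in each. AP-1 genes called lower at 2 h with the empty vector numbered 2 with DESeq2, against 1, and the share of all genes called in that fit was not counted. AP-1 genes with a peak numbered 4 at any distance, against 2 within 3 kb. Same-numbered libraries did not deviate together (correlations of -0.019 to 0.022 in RNA-seq and a mean of 0.010 over 132 pairs in iSLAM-seq). With the replicate number as a block, 5066 genes and 6 AP-1 genes were called in RNA-seq, and of the AP-1 calls 1 was lost, Fos at 8 h (-0.35, edgeR adjusted p = 0.0505). The Fosl1 difference of -0.28 CPM ran from -1.24 CPM, with genes above 1% of a library removed, to -0.043 CPM, with germline scaling. Removing those genes also shrinks the library size, since Gm42418 alone took 51.0% to 59.4% of counts. The -1.24 CPM is therefore on another scale. No called value reversed. Depth limits Fosl1, with at most 6 counts in any library, and 2 libraries per group limit each time point.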
